A study of Mus musculus with 8 samples.

Results

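H3K27ac peaks that were listed in ΔIkE120 P5424 cells with no wt peak close by are described here. A peak of the ΔIkE120 list was taken when no base of it lay within 1 kb of any peak of the wt list, and 2651 of 29902 ΔIkE120 peaks (8.87%) met this rule. They are called ΔIkE120-only peaks below. By the mirror rule 6706 of 34553 wt peaks (19.4%) had no ΔIkE120 peak within 1 kb. The wt list was the longer, and with equal numbers of peaks from each list 3774 ΔIkE120 peaks met the rule. The members were chosen by the presence of a call in the ΔIkE120 list and its absence around the same place in the wt list. Their number, length, enrichment and distances to wt peaks and gene starts are therefore descriptions of that choice and were not tested.

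P5424 is a mouse T cell precursor line, derived from an animal without Rag1 and p53. The wt cells were the unedited line, and ΔIkE120 cells were 1 clone, grown from a limiting dilution after transfection of Cas9 and guide RNAs, in which both alleles had lost IkE120, an enhancer upstream of *Ikzf1*. Chromatin of both was immunoprecipitated with an antibody from Diagenode against histone H3 acetylated at lysine 27 and sequenced, 1 library per genotype. Whether these cells had been treated with PMA and ionomycin is not stated in the sources used here. With 1 library each and 1 clone, the deletion, the clone and the preparation cannot be told apart, and no spread between replicates can be given. Exact (Clopper-Pearson) 95% intervals are given for shares. They cover counting error only and treat peaks as independent, which neighbouring peaks are not. The read depth of the libraries is unknown, and the input library and the height of the signal outside peaks were not analysed here.

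Acetylation of lysine 27 on histone H3 marks active promoters and active enhancers, and a gain or loss of the mark away from promoters is widely used to follow enhancers that change between cell states. Ikaros, the zinc finger protein encoded by *Ikzf1*, binds DNA in lymphoid cells and recruits the nucleosome remodelling and deacetylase complex (NuRD) as well as activating partners. In thymocytes it limits the expression of Notch target genes, and its loss leads to T cell leukaemia in mice.

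Both lists had the peaks of a T cell precursor. Of 12 T precursor markers, 11 had a peak within 1 kb of an annotated start in ΔIkE120 cells and 11 in wt cells, namely *Cd3e*, *Cd3g*, *Cd3d*, *Ptcra*, *Lck*, *Bcl11b*, *Gata3*, *Tcf7*, *Thy1*, *Cd5* and *Notch1*, with *Il2ra* as the exception in both. Of 72 markers of B, myeloid, NK and innate lymphoid, progenitor, erythroid, embryonic stem and stromal cells, 71 had an annotated start, and 10 had a peak there in ΔIkE120 cells against 13 in wt cells. The 10 were *Ebf1*, *Pou2af1*, *Nfil3*, *Tbx21*, *Il2rb*, *Kit*, *Klf1*, *Epor*, *Pou5f1* and *Pdgfrb*, and *Igll1*, *Mpo* and *Il18rap* had one in wt cells alone. The deletion was checked at the interval that the study's methods give for the IkE120 locus, which need not match the deleted bases. In wt cells a peak of 1644 bp at chr11:11563705-11565348 (GRCm38) covered 100% of this interval. In ΔIkE120 cells the nearest peak, chr11:11564652-11565363 with 712 bp, covered 0% of it and lay beside it on the side of *Ikzf1*, 120 kb upstream of the gene. The fold enrichment was 2.58 in the wt peak and 3.74 in the ΔIkE120 peak, and the −log10 q 9.83 and 11.99. These values belong to peaks of unlike extent and are relative to each library's own background. They do not show whether the mark was higher or lower around the deletion. The study itself reported a loss of H3K27ac near the deleted enhancer and a smaller one near the *Ikzf1* promoter.

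ΔIkE120-only peaks were short and weakly enriched. Their median length was 292 bp, with quartiles of 233 and 377 bp and a longest peak of 1169 bp, against a median of 685 bp for the other 27251 ΔIkE120 peaks. A share of 14.7% (390 peaks) had the shortest length in the list, 211 bp, while 2.11% of the other ΔIkE120 peaks did. Only 4 members (0.151%) reached 1 kb, against 28.9% of the others. They made up 3.92% of the bases in ΔIkE120 peaks. Fold enrichment, the ratio of ChIP signal to the local background in the peak as given by the peak caller, had a median of 2.88 in the members and 3.21 in the others. The −log10 of the q-value, where larger values stand for a call that is less likely under the caller's background model, had a median of 2.01 in the members and 5.05 in the others. The highest member reached 7.94 and the highest other peak 89.8. The wt-only peaks, called in the other library, had a median length of 318 bp, a fold enrichment of 2.86 and a −log10 q of 2.12.

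When all ΔIkE120 peaks were ordered by −log10 q and divided into quartiles, 26.5% (25.5% to 27.5%) of the lowest quartile were members, then 8.41% (7.80% to 9.07%) of the next and 0.562% (0.405% to 0.759%) of the third. In the highest quartile, above 9.70, 0 of 7476 peaks was a member (upper limit of the interval 0.0493%). The lowest quartile, up to a −log10 q of 2.55, held 74.7% of all members. Only 42 members reached the median −log10 q of the ΔIkE120 list. Calls near the threshold of the caller thus made up most of the set, and how often such a call would appear in a repeat of the same cells was not tested.

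The median distance from a member to the nearest wt peak was 10.7 kb, with quartiles of 5.34 and 23.4 kb, and 106 members (4.00%) were over 100 kb from any wt peak. The nearest peak of the same ΔIkE120 list that was not a member was at a median of 13.7 kb. Such a peak lay within 10 kb of 39.3% of members and within 100 kb of 93.7%. Of the other ΔIkE120 peaks themselves, 61.5% and 96.4% had another such peak within these distances. Within 100 kb most members thus had a ΔIkE120 peak that was not a member, as had most other peaks. Within 10 kb most members had none. Such a peak lies less than 1 kb from a wt peak but need not overlap it. Just inside the rule, the 123 members from 1000 to 1495 bp away from a wt peak had a median length of 306 bp, a fold enrichment of 2.504 and a −log10 q of 2.02. Just outside it, the 280 ΔIkE120 peaks from 500 to 999 bp away had medians of 283.5 bp, 2.45 and 2.06. The rule thus drew a line through peaks with nearly the same values.

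Most members lay away from gene starts. Starts were the 5′ ends of RefSeq genes with a known strand and further RefSeq starts, together 48799 starts of 35775 genes. Of the members, 11.6% (307, interval 10.4% to 12.9%) lay within 2.5 kb of a start, against 47.4% of the other ΔIkE120 peaks and 11.3% of the wt-only peaks. A further 53.1% (1407) lay inside genes and 35.3% (937) between genes, against 30.6% and 22.0% of the other ΔIkE120 peaks. For wt-only peaks these shares were 50.6% and 38.1%. The rule leaves out peaks near wt peaks, and 40.2% of all wt peaks lay within 2.5 kb of a start. The contrast with the other ΔIkE120 peaks is thus partly set by the rule. Whether members inside genes fell in exons or introns was not analysed here. The median distance to the nearest start was 16.5 kb in members, 16.7 kb in wt-only peaks and 3.75 kb in the other ΔIkE120 peaks. In the sizes of their distances, members and wt-only peaks differed little. A start was overlapped by 1.77% and 1.89% of them, and 47.9% and 46.2% were 10 to 50 kb away. A distance of over 100 kb was found for 5.55% and 5.88%. The nearest start belonged to a protein-coding gene for 60.8% of members and to a long non-coding RNA for 840 of them. No such shares are given here for the other peaks, so these describe the members alone. Members near starts, inside genes and between genes had nearly the same median lengths, 298, 294 and 286 bp, and median −log10 q of 2.23, 1.97 and 2.00.

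A start of a protein-coding gene was overlapped by 33 members, 1 for each of 33 genes. At 24 of these genes it was the 5′ end of the gene, and at the other 9 an alternative start. Of these genes, 11 had no wt peak within 10 kb of the body, among them *Rtl5*, *Zfp932*, *Apoc3*, *Dio2* and *Clec12a*, which were singled out after their values were seen. The 10 with the highest −log10 q were as follows. *Prkcz*, which encodes an atypical protein kinase C, held the strongest at an alternative start 16.7 kb from its 5′ end, with 1081 bp, a fold enrichment of 3.60 and a −log10 q of 4.44. *Zfp940*, a zinc finger gene, had 573 bp at its 5′ end, a fold enrichment of 3.98 and a −log10 q of 3.96. *Rtl5*, a gene derived from a retrotransposon on chromosome X, followed at a −log10 q of 3.93, 47.4 kb from the nearest wt peak. *Poglut1*, whose enzyme adds glucose to the extracellular repeats of Notch receptors, had a peak of 548 bp at its 5′ end with a fold enrichment of 3.96 and a −log10 q of 3.87. The values of −log10 q were 3.73 at an alternative start of *Ahcyl2*, 3.70 at *Psma6*, a subunit of the proteasome, 3.50 at *Kcnj8*, a potassium channel, and 3.17 at *Ccdc9b*. The histone gene *H3c6* had 216 bp at a −log10 q of 2.88. *Hdac7*, a class IIa histone deacetylase of thymocytes, had 276 bp at a −log10 q of 2.75, 29.7 kb from its 5′ end, and the other 3 starts of this gene lay in wt peaks. At *Psma6* the nearest wt peak was 1.45 kb away, close to the limit of the rule, and the other start of the gene lay in a wt peak.

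The promoters of such genes were looked at in RefSeq (GRCm38.p6), where 30 promoters of protein-coding genes had their start inside a member. They belonged to 28 of the 33 genes above, since *Zfp932* and *Podxl2* each had a pair of starts in the same peak. *Apoc3*, *2610528J11Rik*, *Slc5a11*, *Flna* and *Nos2* were not among them and are not part of the shares below. The 250 bases upstream of these starts had a median of 7.5 CG dinucleotides and 51.6% G and C, against 10 and 55.6% over all 21263 promoters of protein-coding genes. Promoters with a start in another ΔIkE120 peak had 18 and 62.0%, so the promoters held by members were not rich in CG for promoters with the mark. The letters TGGGAA, the core recognised by Ikaros, were sought on both strands and found in 7 of 30 (23.3%) against 20.9% of all promoters. CCGGAA, recognised by ETS factors, was in 2 of 30 (6.67%) against 15.0%, and both were promoters of *Zfp932*, so that 1 gene had it. TGTGGT, recognised by Runx factors, was in 5 (16.7%) against 12.4%, and CAGGTG, an E-box, in 7 (23.3%) against 16.9%. None of these motifs is the reverse complement of another, and a match is a description of the letters only. The sequences upstream of 4 of the 10 starts are shown, chosen after their values were seen because of a strong call or a gene with a role in chromatin, protein turnover or Notch signalling, 5′ to 3′ on the strand of the gene, with matches in capitals. They are at chr4:155344750-155344999 (minus strand) for *Prkcz*, chr16:38550257-38550506 (minus) for *Poglut1*, chr12:55383972-55384221 (plus) for *Psma6* and chr13:23562386-23562635 (minus) for *H3c6*.
Prkcz: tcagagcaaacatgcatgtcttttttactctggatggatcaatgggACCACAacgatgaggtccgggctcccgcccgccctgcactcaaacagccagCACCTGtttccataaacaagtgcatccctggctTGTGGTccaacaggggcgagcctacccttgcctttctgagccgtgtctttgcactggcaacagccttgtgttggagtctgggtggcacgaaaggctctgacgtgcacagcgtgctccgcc
Poglut1: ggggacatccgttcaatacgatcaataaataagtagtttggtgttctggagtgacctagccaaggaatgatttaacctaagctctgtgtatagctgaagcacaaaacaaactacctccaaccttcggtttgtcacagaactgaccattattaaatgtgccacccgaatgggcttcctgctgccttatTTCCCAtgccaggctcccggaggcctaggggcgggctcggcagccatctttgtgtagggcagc
Psma6: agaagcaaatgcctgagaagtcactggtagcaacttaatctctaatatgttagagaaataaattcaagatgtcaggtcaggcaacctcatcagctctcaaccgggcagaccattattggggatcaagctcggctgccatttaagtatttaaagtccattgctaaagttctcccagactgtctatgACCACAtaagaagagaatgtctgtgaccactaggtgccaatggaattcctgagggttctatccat
H3c6: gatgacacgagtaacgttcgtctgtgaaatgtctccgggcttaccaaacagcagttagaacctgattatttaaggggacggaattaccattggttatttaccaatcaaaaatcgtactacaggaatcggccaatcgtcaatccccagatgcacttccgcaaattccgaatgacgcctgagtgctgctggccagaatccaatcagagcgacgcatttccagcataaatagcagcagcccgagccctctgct
*Prkcz* had the Runx letters on both strands and the E-box on the opposite strand, *Poglut1* the Ikaros core on the opposite strand, *Psma6* the Runx letters on the opposite strand, and *H3c6* none of the motifs.

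Along the chromosomes the members were spread thinly. The median distance from a member to the next member was 104 kb, against 39.6 kb between wt-only peaks, of which there were more. Another member lay within 10 kb of 10.6% of members (281, interval 9.45% to 11.8%), against 22.9% for wt-only peaks and 61.5% for the other ΔIkE120 peaks. Within 100 kb the shares were 48.6%, 74.2% and 96.4%. These shares rise with the number of peaks in a set and were not compared by a test. A wt-only peak lay within 10 kb of 13.2% (11.9% to 14.5%) of members and within 100 kb of 70.0%. For the other ΔIkE120 peaks these shares were 11.7% and 68.2%. Joining members less than 10 kb apart gave 135 runs of 2 or more and 10 runs of 3 or more, which held 31 members. The longest run had 4 members, at chr19:7109892-7122719, inside *Flrt1* and *Macrod1*, with 0 wt peaks within 10 kb. The shortest of the runs of 3 spanned 1342 bp, at chr10:24158542-24159883 in *Stx7*. The others, like these named after their values were seen, lay at *Nfia*, *Uxs1*, *Ripor2*, *Rin3*, *9830166K06Rik* and *Zfp609*, and at 2 places outside genes, chr8:88389032-88390616 and chr11:69063900-69066855. No wt peak lay within 10 kb of the runs at *Uxs1*, *Ripor2* and *Zfp609*. Of 1854 windows of 1 Mb with a ΔIkE120 peak, 1078 held a member, and 127 held 5 or more. The window with most, chr2:75000001-76000000, had 11 among 43 ΔIkE120 peaks, beside 10 wt-only among 41 wt peaks. Of 16 windows with 8 or more members, 4 were on chromosome 4 and 12 elsewhere. Windows with 10 members each lay at 52 Mb on chromosome 11, with 10 wt-only peaks, and at 107 Mb on chromosome 12, with 12, and a window with 9 at 24 Mb on chromosome 13, with 7. On chromosome 4, from 120 to 121 Mb there were 10 members and 4 wt-only peaks, and from 129 to 130 Mb 9 and 7. From 88 to 89 Mb there were 8 and 1, and from 123 to 124 Mb 8 and 0. Windows elsewhere with 8 members included some with more wt-only peaks. There were 16 at 21 Mb on chromosome 10, 15 at 85 Mb on chromosome 15 and 14 at 76 Mb on chromosome 11. At 57 Mb on chromosome 14 and 173 Mb on chromosome 2 there were 9 each. On chromosome 9 there were 8 at 65 Mb and 5 at 66 Mb.

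Chromosome 4 stood apart from the other chromosomes in the balance between both lists. Of its 1868 ΔIkE120 peaks, 239 were members, 12.8% (11.3% to 14.4%), the highest share of the 19 autosomes and the X chromosome. On the other autosomes together the share was 8.67% (8.335% to 9.004%). The next highest were 10.9% on chromosome 9 and 10.7% on chromosome 2, and the lowest 5.50% on the X chromosome. On the mitochondrial genome 1 of 4 ΔIkE120 peaks was a member. The number of ΔIkE120 peaks per wt peak was 0.938 on chromosome 4 and 0.860 on the other autosomes, where it ran from 0.790 on chromosome 14 to 0.894 on chromosome 10. It was 0.934 on the X chromosome. There were 0.740 members per wt-only peak on chromosome 4, against 0.376 on the other autosomes, 0.448 on chromosome 9 and 0.564 on the X chromosome. Chromosomes 2, 9 and 14 differed from chromosome 4 in that they were high in both kinds or in wt-only peaks: 21.3%, 21.1% and 25.9% of their wt peaks were wt-only, and 16.2% on chromosome 4. A wt-only share as low as this was also found on chromosomes 5, 8 and 10, with 16.0% each, and on the X chromosome, with 9.11%.

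Both parts of the chromosome had a share of members above that of the other autosomes, and the share of wt-only peaks was lower in the distal part. Before 80 Mb, 11.7% (9.09% to 14.8%) of ΔIkE120 peaks were members and 22.9% (19.6% to 26.5%) of wt peaks were wt-only. From 80 Mb on, the shares were 13.2% (178 of 1348, 11.4% to 15.1%) and 13.3% (183 of 1381, 11.5% to 15.2%), so that peaks called in either list alone were about equal in number, where the rest of the genome had 8.66% and 19.7%. The 80 Mb position was chosen after the values were seen. The bases in ΔIkE120 peaks were 1.00 of those in wt peaks there and 0.874 elsewhere. Of 214 windows of 10 Mb with 40 or more ΔIkE120 peaks, 9 held as many members as wt-only peaks or more, and 5 of the 9 were among the 8 windows of chromosome 4 from 80 Mb. The largest excess was from 80 to 90 Mb, with 12 members and 5 wt-only peaks, and from 120 to 130 Mb, with 37 and 18. The remaining 4 were on chromosomes 10, 16, 18 and X, with 10 and 7, 11 and 11, 5 and 5, and 6 and 5.

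Peaks shared by both lists were compared there too, with measures that did not all differ in the same direction. Among peaks that overlapped exactly 1 peak of the other list, the median log2 ratio of the length in ΔIkE120 to that in wt cells was 0.017 over 981 such pairs on chromosome 4 from 80 Mb, and -0.059 over 21717 pairs elsewhere. The ΔIkE120 peak was the longer for 53.2% and 40.7% of them. The median log2 ratio of −log10 q was 0.14 on this segment and -0.049 elsewhere, while that of the fold enrichment was lower on the segment, -0.0044 against 0.038. Within quartiles of −log10 q the members were again the larger share on the segment, with 38.7% (33.3% to 44.4%) of its lowest quartile against 26.0% (24.94% to 26.99%) elsewhere, 15.2% (11.5% to 19.6%) against 8.10% (7.48% to 8.76%) in the next, and 2.75% (1.19% to 5.34%) against 0.473% (0.328% to 0.661%) in the third. These values come from the same pair of libraries and are no independent support. The number of copies of the segment in either line was not analysed here. It held 6.71% of members and 4.51% of ΔIkE120 peaks, so most members lay elsewhere.

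A member lay within 10 kb of the body of 2808 of 49980 RefSeq genes (5.62%), and 82.0% of members had such a gene. Among protein-coding genes there were 1808 of 21900 (8.26%). A total of 99 genes (0.198%) had 3 or more members, 87 of them protein-coding. Since neighbouring genes can share members, the 99 genes formed 89 loci. The number depended on the rule: with 0 bp in place of 1 kb there were 253 such genes, with 5 kb 53, with equal numbers of peaks from each list 216, with a stricter ΔIkE120 list alone 0, and with both lists limited to peaks that reached their own median −log10 q 6. By the mirror count 476 genes had 3 or more wt-only peaks, and 32 genes were in both groups. Genes with 3 or more members were long. The 87 protein-coding ones had a median length of 194 kb, and 80.5% exceeded 100 kb, against 11.1% of all protein-coding genes. Protein-coding genes with 3 or more ΔIkE120 peaks of any kind had a median length of 30.3 kb. The part of gene length in these counts was not tested further. No wt-only peak lay near 39 of the 99 genes, while 24 had as many wt-only peaks as members or more. On chromosome 4 there were 14 of the 99, 12 of which reached past 80 Mb, and 13 were on chromosome 9. These chromosomes held 9.02% and 7.58% of all members and 6.25% and 6.14% of all ΔIkE120 peaks.

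The 25 loci with most members held 112 of them, from 7 to 4 each, and 8 of the loci were on chromosome 4, which held 9.02% of all members and 6.25% of all ΔIkE120 peaks. *Nfia*, which encodes a nuclear factor I protein, had 7 members over its body of 541 kb at chr4:97578066-98118876. It also had 6 wt-only peaks, and both lists held 28 peaks there. Its members had lengths from 211 to 427 bp and −log10 q from 1.40 to 3.04, and 3 of them formed a run in the middle of the gene. *Igf1r*, the receptor of insulin-like growth factor, had 6 members and 3 wt-only peaks at chr7:67952257-68233668, among 13 ΔIkE120 and 10 wt peaks. At these genes, then, peaks called in 1 list alone occurred on both sides.

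Another group of loci had members and few or no wt-only peaks. The loci were picked for their number of members, which favours an excess of members over wt-only peaks and of ΔIkE120 over wt peaks. *Macf1*, which encodes a protein that links microtubules and actin, had 5 members, 0 wt-only peaks and 16 ΔIkE120 against 11 wt peaks at chr4:123349633-123687802. The distances from its members to the nearest wt peak ran from 5217 to 31430 bp. *Zfp609*, a zinc finger gene at chr9:65691578-65827564, had 6 ΔIkE120 peaks, 5 of them members, and 1 wt peak. Its members were from 301 to 374 bp long, with fold enrichments from 2.53 to 3.33 and −log10 q from 1.10 to 3.09, and lay 8988 to 55231 bp from the nearest wt peak. They were spread through the body of the gene, and none lay within 10 kb of a start. *Cdk5rap2*, a centrosome gene at chr4:70216855-70410435, had 10 ΔIkE120 and 4 wt peaks, with 4 members and 0 wt-only peaks. *Focad* (11 and 7 peaks), *Osbpl9* (9 and 5) and *Pde4b* (8 and 6) each had 4 members and 0 wt-only peaks. So did *Flrt1* (9 and 7) and *Macrod1* (15 and 13), which share their members. *Focad*, *Osbpl9* and *Pde4b* lie on chromosome 4. *Pde4b*, a phosphodiesterase that degrades cyclic AMP, held the strongest member of the 25 loci, with a −log10 q of 5.08 and a fold enrichment of 3.32 at chr4:102511623-102511970.

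Other loci had members beside at least 1 wt-only peak. *Mllt3*, whose product reads acylated histones, had 4 members and 1 wt-only peak among 9 ΔIkE120 and 6 wt peaks, and *Sik3*, a kinase, 4 and 1 among 18 and 14. *Cadm1*, an adhesion molecule, had 4 and 1 among 10 and 6, and *Fam178b* 4 and 1 among 9 and 7. *Thsd4* had 4 members among only 4 ΔIkE120 peaks, and 2 wt peaks, both wt-only. Members and wt-only peaks were close in number at *Med13l*, a Mediator subunit (5 and 3), *Jazf1* (5 and 4), *Ripor2* (5 and 4), *Dennd1a* (5 and 5), *Frmd5* (4 and 4), *Peak1* (4 and 3) and *Prkag2*, a subunit of AMP-activated kinase (4 and 3). *Ahi1*, a neighbour of *Myb*, had 5 members and 3 wt-only peaks, with 16 peaks in each list. Wt-only peaks outnumbered the members at *Exoc4* (4 and 6), *Eipr1* (4 and 5) and *Hivep3*, a zinc finger gene (4 and 11). Among the 99 genes, *Ppfia4* and *Gpm6b*, singled out after their values were seen, had 3 ΔIkE120 peaks, all members, and 0 wt peaks.

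The member with the highest −log10 q, 7.94, had 432 bp and a fold enrichment of 5.33 at chr13:116622265-116622696. It lay between genes, 215 kb from the nearest start, *4930435F18Rik*, and 89.1 kb from the nearest wt peak. The next, at chr4:106529648-106529965 between genes, reached 7.68 with a fold enrichment of 2.87 and lay 2.97 kb from a wt peak and 23.3 kb from the start of *Tmem61*. A member inside *Pde4a*, another phosphodiesterase of cyclic AMP, reached 6.41 and was 2.33 kb from a wt peak. At chr3:90690384-90691197, 4.52 kb from the start of *S100a9*, a calcium-binding protein of neutrophils, a member of 814 bp reached 6.34 with a fold enrichment of 4.51, and the nearest wt peak was 65.9 kb away. At *Zfp85*, a zinc finger gene, a member of 360 bp at chr13:67754802-67755161 lay 41 bp from a start, with a −log10 q of 6.25, a fold enrichment of 4.79 and 70.9 kb to the nearest wt peak. The values were 6.03 near *Gm35913*, 5.95 near *Me2*, 5.77 near *Myo10*, 5.71 inside *Inpp5f* and 5.64 at *Rusc1*. Those near *4930435F18Rik*, *S100a9* and *Zfp85* thus stood far from any wt peak, while the one at *Rusc1* was 1.41 kb from one and that near *Me2* 3.56 kb.

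On chromosome 11 the members nearest *Ikzf1* and IkE120 were as follows. *Ikzf1* (chr11:11684962-11772930, plus strand) had 10 ΔIkE120 and 8 wt peaks within 10 kb, with 2 members among the 10 and 1 wt-only peak among the 8. The member at chr11:11695859-11696096 had 238 bp, a fold enrichment of 2.09 and a −log10 q of 3.00, above the upper quartile of 2.55 over all members, and lay inside the gene 10.9 kb from its 5′ end and 131 kb from IkE120. The other, at chr11:11711830-11712376, had 547 bp, a fold enrichment of 1.82 and a −log10 q of 1.66, 26.9 kb from the 5′ end. On the other side of IkE120 the nearest member was at chr11:11500263-11500473 in *Spata48*, 63.9 kb from IkE120, with 211 bp and a −log10 q of 1.73. All 3 had wt peaks 2.62 to 5.93 kb away. *Zpbp*, further upstream, had 2 peaks in each list and 0 members.

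Members at genes of T cell biology were read against the 8.26% of all protein-coding genes with a member within 10 kb. This baseline includes genes with no ΔIkE120 peak, whereas most genes of the lists had one. Among the 13198 protein-coding genes with a ΔIkE120 peak the share was 13.7%. The lists are short and their genes differ in length, and no list was tested. Of 16 Ikaros family and NuRD genes, 3 had a member (18.8%): *Ikzf1*, *Ikzf3*, which encodes Aiolos, with 1, and *Gatad2a*, a NuRD subunit, with 2. Both members of *Gatad2a* lay inside the gene, 15.5 and 9.70 kb from the nearest wt peak, with −log10 q of 1.788 and 2.296. Of these genes' 62 ΔIkE120 peaks 8.06% were members. Over all protein-coding genes the share was 6.68%. It counts a peak once for each gene near it, which gave 34209 counts from a list of 29902 peaks. With each peak of the list counted once, 8.87% were members. Of 22 Notch pathway genes and targets 3 had a member (13.6%). They were *Jag1*, a Notch ligand, *Maml2*, a coactivator of Notch, with 2, and *Dtx1*, a Notch target. Of the 68 ΔIkE120 peaks of these genes 5.88% were members. At *Jag1* the member of 211 bp at chr2:137086129-137086339 was the only peak of either list, with a fold enrichment of 3.73, a −log10 q of 3.30 and 121 kb to the nearest wt peak. At *Maml2* there were also 5 wt-only peaks.

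Of 22 T lineage transcription factor genes 4 had a member (18.2%). *Tcf12*, which encodes the E protein HEB, had 3 members and 3 wt-only peaks among 11 ΔIkE120 and 12 wt peaks, and 2 of its members lay 1.04 and 1.25 kb from a wt peak. *Runx1*, *Ets1* and *Id1* had 1 member each, with −log10 q of 1.76, 1.20 and 1.27. *Tcf7*, *Gata3* and *Bcl11b* had none. Of 20 CD3, co-receptor and signalling genes 2 had a member (10.0%). The kinase gene *Fyn* had 3, the strongest at chr10:39471755-39472077 with a −log10 q of 4.01, among 18 ΔIkE120 and 15 wt peaks. *Ptprc*, which encodes the phosphatase CD45, had 1, inside the gene, with a −log10 q of 4.61 and a fold enrichment of 2.43. Of 24 activation and cytokine genes 2 had a member (8.33%), *Cd44* with a −log10 q of 1.60 and *Il4* with 1.78. The member of *Il4* lay outside the gene at 11.6 kb from its start. Of 12 survival and p53 genes *Bcl2l1* alone had a member (8.33%), with a −log10 q of 1.41. In these 6 lists together 15 of 116 genes had a member, beside 8.26% of all protein-coding genes and 13.7% of those with a ΔIkE120 peak. In the last 4 of these lists the share of ΔIkE120 peaks that were members was 4.84%, 3.33%, 3.28% and 2.63%. Near all protein-coding genes it was 6.68%, with a peak counted once per gene, and over all ΔIkE120 peaks 8.87%.

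Among markers of cell types, 0 of 12 T precursor genes had a member, beside 8.26% of all protein-coding genes. All 12 had a ΔIkE120 peak, and among protein-coding genes with such a peak the share was 13.7%. Of the 71 ΔIkE120 peaks near the T precursor genes 0 was a member. This stands beside 6.68% near all protein-coding genes, counted once per gene as above, and 8.87% of all ΔIkE120 peaks. Of the 72 markers of other cell types 4 had a member (5.56%), and 5 of their 70 ΔIkE120 peaks (7.14%) were members. Of the 33 with a ΔIkE120 peak 12.1% had a member, beside 13.7% of protein-coding genes with such a peak. These were *Bank1* of B cells, *Itgam* of myeloid cells, *Zbtb16* of innate lymphoid cells with 2, and *Erg* of progenitors. Their −log10 q ran from 1.61 for *Erg* to 2.82 for the stronger member of *Zbtb16*, and none lay within 2.5 kb of a start of its gene. Erythroid, embryonic stem and stromal markers had 0 members. Near the same 72 genes, 26 of 95 wt peaks (27.4%, interval 18.7% to 37.5%) were wt-only. The share was 14.7% near all protein-coding genes, with a peak counted once for each gene near it. Of all wt peaks, each counted once, 19.4% were wt-only, which lies inside this interval, and no test was made. The part of other cell types in the members was not tested.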

How the data were processed

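H3K27ac ChIP-seq peak lists of wt and ΔIkE120 P5424 cells were used, 1 library per genotype. The submitters' processing notes name Bowtie2 2.3.4.3, MACS2 2.1.1, deepTools 3.2.1, Bowtie 1.0.0 and GRCm38, without saying which step each served or with which settings. The authors deposited broad peaks, called per library, with a score, a fold enrichment (a ratio of signal to background), a −log10 p-value and a −log10 q-value. These deposited values are relative to each library's own background. Between genotypes they are given side by side as descriptions, and as log2 ratios of overlapping peaks for chromosome 4 beside the rest of the genome. The 6 libraries of 4C-seq were not used here. Read depth is unknown.

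ΔIkE120 peaks separated from every wt peak by 1 kb or more were kept. Genes were those of RefSeq (GRCm38.p6). Their strand came from RefSeq promoters or, by symbol, from GENCODE M1, which gave a start to 96.5% of protein-coding genes. Members were counted within 10 kb of gene bodies. Overlap and distance code was tested on simulated peaks. Python 3.11.15, numpy 2.4.6, pandas 2.3.3 and scipy 1.17.1 were used. The position of the IkE120 locus came from the study's methods, where it was used to extract accessibility.

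The members and gene lists were chosen with earlier results of these data known. Named are the 25 loci with most members (ties by summed member length), the 10 members with the highest −log10 q, those nearest *Ikzf1* and IkE120, the 10 with the highest −log10 q at protein-coding starts, and genes of the lists with a member within 10 kb. Alternatives were other separating distances, stricter peak thresholds in 1 or both lists, equal list sizes, other windows and flanks, protein-coding genes, merged members and, chosen after seeing the data, leaving out chromosome 4 from 80 Mb.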

Additional observations from a re-analysis of the deposited data

How the results depend on the processing

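Values that moved are given by setting, and the cause was not tested except where the setting itself lowers the number of peaks. With no shared base as the rule (0 bp) there were 4054 peaks, of which 15.9% lay within 2.5 kb of a start and 14.6% had another within 10 kb, and 253 genes had 3 or more. At 5 kb the shares were 10.4% and 9.07% and the genes 53. With ΔIkE120 peaks at or above their median −log10 q against all wt peaks, 42 peaks of a median 320.5 bp were left, 0% had another within 10 kb and 0 genes had 3 or more. With this threshold in both lists there were 908 peaks of 524.5 bp, 27.4% within 2.5 kb of a start, 5.40% with another within 10 kb, and 6 genes. With equal numbers of peaks from each list there were 3774 peaks, against 2651 with the full lists. Their median length was 303.5 bp, the share with another within 10 kb 16.2% and the genes 216. Within 1 kb of a start lay 6.68%, and within 2.5 kb of a protein-coding start 7.17%. Another member lay within 5 kb of 7.13% and within 25 kb of 20.1%. Other flanks, protein-coding genes and merged members kept the number of genes within 1.5 times of 99. Without chromosome 4 from 80 Mb there were 2473 peaks of a median 290 bp and 87 genes. The share of members on that segment was 1.52 times that elsewhere, from 1.29 to 1.61 times under 4 alternatives, and 4.72 times among the 42 peaks of the stricter ΔIkE120 threshold. With 1 library each of unknown depth, weak calls in 1 list alone cannot be told apart from calls that the other library narrowly missed.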
